A study of Mus musculus with 2 samples.

Results

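Chromatin remodeller genes were examined at their promoters for trimethylation of histone H3 at lysine 4 (H3K4me3), a mark found at the starts of active and poised genes. The genes were chosen by name (Smarca4, Smarcb1, Smarcc1, Smarcd1, Arid1a, Brd9, Chd1, Chd4, Ep400 and Ino80), and their promoters were read from the deposited peak lists. They are 10 of the 20587 protein-coding genes analysed. The assay was chromatin immunoprecipitation followed by sequencing (ChIP-seq) in E14TG2a.4, a male embryonic stem cell line of the 129/Ola mouse strain for which the labels name no treatment. The study held 1 group of 2 biological replicates, which the labels trace to 1 donor, so the spread given below is that between cultures or preparations of a single line. No second condition was measured, and no difference between conditions could be tested. With 2 values against 2, the smallest two-sided exact permutation p is 0.333, so differences between genes were set beside the spread of the replicates without a test.

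Chromatin remodellers use ATP to slide, eject or exchange nucleosomes. BAF complexes (the mammalian SWI/SNF family) open regulatory DNA, the NuRD complex joins remodelling to histone deacetylation, and the INO80 and Tip60-p400 complexes act on the histone variant H2A.Z. Embryonic stem cells depend on several of them: a stem cell form of BAF built around Smarca4, the chromatin-opening factor Chd1, which binds H3K4me3 through its chromodomains, and Tip60-p400 are known from work on self-renewal.

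All 10 genes carried an H3K4me3 peak within 1 kb of their 5′ end in the replicated list, in both replicates' own lists and in the pooled list. Among all protein-coding genes, 14076 of 20587, or 68.4%, were marked in the replicated list, so a peak alone is common. The sequences before the starts of these genes were rich in CpG. RefSeq promoter sequences on GRCm38.p6 (mm10) matched 9 of the 10 genes. In the 250 bases before the RefSeq start, the 9 genes had a median of 25 CpG dinucleotides (12 to 33) and a median GC content of 69.2% (54.0 to 72.4), against 10 CpG and 56.0% over 16543 protein-coding genes. Their median ratio of observed to expected CpG was 0.899, against 0.563.

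Sequences of 5 genes for BAF subunits are shown because they let the shared composition be seen, and because the Smarca4 stretch runs into the gap between its peaks. Each is written 5′ to 3′ on the strand of the gene and ends at the gene's outermost 5′ end. Capitals mark matches to the motifs described afterwards. They lie at chr9:21615919-21616105 (plus strand) for Smarca4, chr10:75921615-75921864 (minus strand) for Smarcb1, chr9:110131774-110132023 (plus strand) for Smarcc1, chr15:99702037-99702286 (plus strand) for Smarcd1 and chr4:133756770-133757019 (minus strand) for Arid1a.
Smarca4: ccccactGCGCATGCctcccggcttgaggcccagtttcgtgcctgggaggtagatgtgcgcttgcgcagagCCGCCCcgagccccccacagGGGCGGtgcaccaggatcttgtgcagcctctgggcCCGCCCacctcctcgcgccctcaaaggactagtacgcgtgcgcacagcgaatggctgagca
Smarcb1: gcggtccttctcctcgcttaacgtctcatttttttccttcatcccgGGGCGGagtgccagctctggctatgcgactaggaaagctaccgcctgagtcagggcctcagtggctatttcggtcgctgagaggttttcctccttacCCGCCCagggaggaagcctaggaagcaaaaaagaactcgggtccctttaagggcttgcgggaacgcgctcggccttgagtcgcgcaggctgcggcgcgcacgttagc
Smarcc1: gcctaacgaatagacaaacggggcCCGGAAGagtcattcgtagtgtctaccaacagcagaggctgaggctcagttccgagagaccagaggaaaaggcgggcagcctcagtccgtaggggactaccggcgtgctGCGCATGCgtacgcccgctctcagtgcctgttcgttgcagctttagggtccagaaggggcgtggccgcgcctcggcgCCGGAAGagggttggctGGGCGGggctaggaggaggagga
Smarcd1: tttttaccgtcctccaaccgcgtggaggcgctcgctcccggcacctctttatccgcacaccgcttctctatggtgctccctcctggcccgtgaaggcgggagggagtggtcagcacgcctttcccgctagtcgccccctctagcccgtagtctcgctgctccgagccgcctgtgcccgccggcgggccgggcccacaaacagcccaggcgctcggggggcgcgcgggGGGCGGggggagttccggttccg
Arid1a: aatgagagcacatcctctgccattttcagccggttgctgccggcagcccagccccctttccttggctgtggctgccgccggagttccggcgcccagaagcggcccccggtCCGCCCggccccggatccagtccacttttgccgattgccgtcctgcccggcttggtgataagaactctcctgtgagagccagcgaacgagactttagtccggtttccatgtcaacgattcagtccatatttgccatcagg

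Short motifs were searched on both strands of the 250 bases before the RefSeq start. The GC box GGGCGG was found in 9 of 9 genes, against 44.3% of the 16543 promoters. These sets differed in median GC content (69.2% and 56%), and a share among promoters of like GC content was not computed. A match to GCGCATGC, the core bound by NRF1, stood in Smarca4, 243 and 66 bases before the start, and in Smarcc1, 117 bases before it, that is in 2 of 9 genes against 3.10% of promoters. The ETS-type letters CCGGAAG were in Smarcc1, at 226 and 40 bases, and in Brd9, at 13 bases, against 9.46% of promoters. CCAAT was found in Ino80 alone (1 of 9, against 36.6%). No match was found to the TATA box TATAAA, which 12.1% of promoters held, or to the E-box CACGTG (6.84% of promoters). Likewise none was found to the CRE-type letters TGACGTCA (2.06%) or the YY1-type letters AAGATGGCG (0.701%). None of these motifs overlapped another in the sequences shown, and a match describes letters, not binding. On mm9, from the sequence at the first annotated start, all 10 genes fell in the high-CpG class. That class held 7521 protein-coding genes, beside 5345 in the intermediate and 7461 in the low-CpG class. Of the high-CpG genes, 96.3% were marked.

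Promoter signal, the authors' ratio of ChIP over control for the strongest peak within 1 kb, ranged from 43.7 to 66.5 over the 10 genes in the replicated list. Their median was 56.1, against 43.1 over all marked genes. In replicate 1 the medians were 52.2 and 38.5, and in replicate 2 they were 46.9 and 36.8. Signals in the replicated list are those of the authors' pooled call and run higher than in either replicate. The 10 genes lay above the all-gene median in the replicated list and in replicate 2, and 9 did so in replicate 1, where Smarca4 lay below. Within the high-CpG class the all-gene median was 51.3, closer to that of the 10 genes. Replicate 1 gave the higher signal for 7 of the 10 genes, and for 63.8% of the 13951 genes marked in both replicates. The median difference between replicates was 7.04% of the mean for the 10 genes and 7.70% over all genes.

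**Figure D1:**
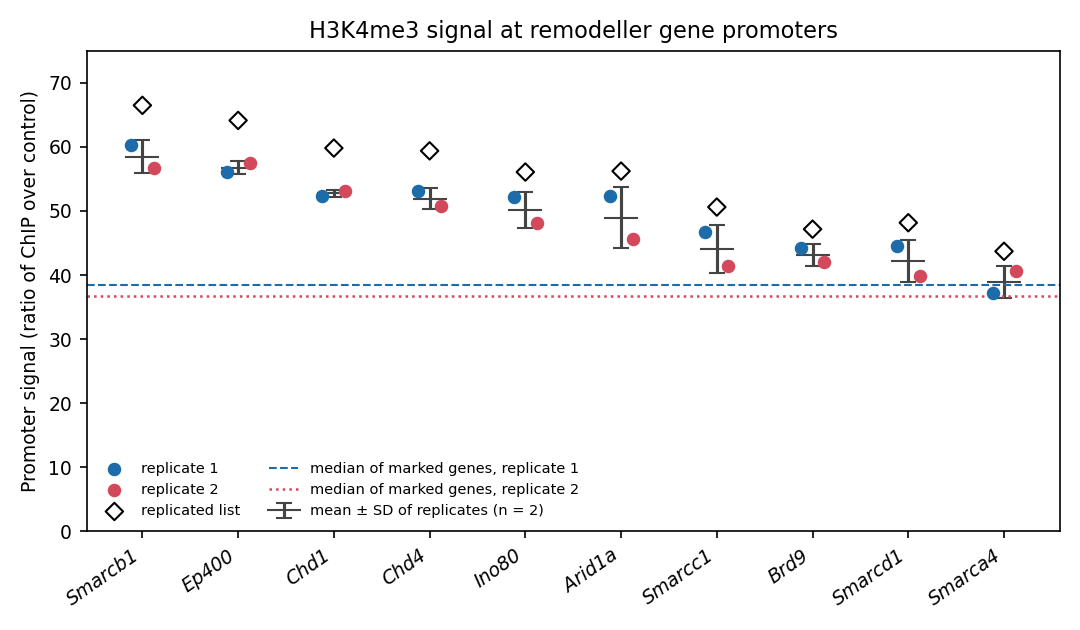
Promoter H3K4me3 signal (ratio of ChIP over control, vertical axis) of the 10 genes in replicate 1, replicate 2 and the replicated list, with the mean and SD of the replicates (n = 2) and each replicate's median over marked genes as a line. Smarcb1 and Ep400 have the highest means, Smarca4 has the lowest, and the replicated values lie above both replicates for every gene.

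Smarca4 encodes BRG1, the ATPase of BAF complexes in stem cells. Its promoter signal was 37.2 in replicate 1 and 40.7 in replicate 2, a mean of 38.9 ± 2.46 (SD, n = 2), the lowest of the 10. The gene (identifier 20586) lies on the plus strand of chromosome 9, at 21616106-21704230 on mm10. Its mark was divided into a pair of peaks on either side of the start. In the replicated list the upstream peak had a signal of 40.4 with its summit at -431 bp from the 5′ end, negative meaning upstream, and the downstream peak had a signal of 43.7 with its summit 646 bp inside the gene. The 153 bp between them, chr9:21616016-21616168, held the annotated 5′ end, and the last base of that gap lay next to the RefSeq start 63 bp inside the gene. The gap was 187 bp wide in replicate 1 and 165 bp in replicate 2, so both replicates showed it. The GCGCATGC match that begins 66 bases before the RefSeq start falls in it, across the end of the sequence shown.

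Smarcb1 encodes a core BAF subunit that touches the nucleosome and is a tumour suppressor. Its signal was 60.3 in replicate 1 and 56.7 in replicate 2, a mean of 58.5 ± 2.58 (SD, n = 2), the highest of the 10. The gene (20587) is on the minus strand of chromosome 10, at 75896769-75921614. In the replicated list its signal of 66.5 was at the 89.4th percentile of marked genes, while its domain of 2059 bp was at the 37.8th. Domains are peaks less than 1 kb apart joined together, and this was the narrowest of the 10. High signal and narrow width thus stood together at this promoter in the replicated list.

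Smarcc1 encodes a scaffold subunit of BAF that predominates in stem cells. Its signal was 46.7 in replicate 1 and 41.5 in replicate 2, a mean of 44.1 ± 3.74 (SD, n = 2). The gene (20588) is on the plus strand of chromosome 9, at 110132024-110240178, and 1 peak of 4412 bp in the replicated list covered its start, with its summit 206 bp inside. Smarcd1 encodes an accessory subunit that links BAF to transcription factors. Its signal was 44.5 and 39.9, a mean of 42.2 ± 3.28 (SD, n = 2), near the bottom of the 10. At the Smarcd1 promoter the mark was moderate in height and wide.

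The Smarcd1 domain was 9604 bp wide in replicate 1 and 9905 bp in replicate 2, a mean of 9.75 ± 0.213 kb (SD, n = 2). It ran from 3814 bp upstream to 5940 bp downstream of the start in the replicated list (chr15:99698473-99708227), around a main peak of 6643 bp. The gene itself (83797, plus strand, 99702287-99713995) is 11.7 kb long, so the mark reached about the middle of it. A pseudogene, Gm17241, has its 5′ end within this domain, 4559 bp into Smarcd1 and on the opposite strand. That 5′ end was in no peak in the replicated list or in either replicate. In the replicated list it lay between joined peaks that end at 99706427 and begin at 99707087. Whose mark the peaks on either side are cannot be told apart.

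Arid1a encodes the large DNA-binding subunit that defines canonical BAF. Its signal was 52.4 in replicate 1 and 45.6 in replicate 2, a mean of 49.0 ± 4.79 (SD, n = 2), the largest SD of signal among the 10. The domain measured 10864 bp in replicate 1 and 9572 bp in replicate 2, a mean of 10.2 ± 0.914 kb (SD, n = 2). Arid1a and Smarcd1 had the widest domains, and their replicate ranges overlapped. In the replicated list both exceeded 9 kb (9784 and 9755 bp), as 2 of the 10 genes against 3.57% of marked genes (502 of 14076). That cut lies just under these 2 widths, so the count follows from where it falls and was not tested. The next widest was Chd4 at 6230 bp. With no joining, the Smarcd1 width was 6643 bp, under the cut.

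The Arid1a domain extended 8345 bp into the gene and 1438 bp upstream in the replicated list. The gene (93760) is on the minus strand of chromosome 4, at 133679008-133756769, and RefSeq lists starts at its 5′ end and 2784 bp inside it, both within the domain. The strongest summit lay upstream of the first, at -523 bp from the 5′ end. Replicate 2 resolved the domain into a main peak at the start, with a signal of 45.6, and another of 39.6 with its summit 3978 bp inside the gene. In replicate 1 the same stretch was 1 peak of 9117 bp.

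Brd9 encodes a bromodomain protein that defines the non-canonical BAF complex. Its signal was 44.3 in replicate 1 and 42.0 in replicate 2, a mean of 43.1 ± 1.64 (SD, n = 2). The gene (105246) is on the plus strand of chromosome 13, at 73937801-73960895. Trip13, a gene for a meiotic and spindle checkpoint ATPase, has its 5′ end 6 bp away on the opposite strand, so the domain of 2787 bp covers both starts and cannot be assigned to one of them. The Brd9 summit changed sides between replicates: it lay 159 bp inside the gene in replicate 1 and at -284 bp in replicate 2.

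Chd1 encodes the remodeller that itself binds H3K4me3. Its signal was 52.4 in replicate 1 and 53.1 in replicate 2, a mean of 52.8 ± 0.541 (SD, n = 2). The SDs of its signal and of its width were the smallest of the 10, with domains of 3305 and 3291 bp that shared 97.0% of their joint length, while its summits were 71 bp apart. The gene (12648) is on the plus strand of chromosome 17, at 15704967-15772612, and its summit lay 774 bp inside in the replicated list.

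Chd4 encodes the main ATPase of NuRD. Its signal was 53.1 in replicate 1 and 50.8 in replicate 2, a mean of 51.9 ± 1.64 (SD, n = 2). The mark at Chd4 lay almost wholly inside the gene (107932, plus strand of chromosome 6, 125095980-125130591): 95.3% of the domain of 6230 bp was downstream of the 5′ end. A main peak of 3581 bp with a signal of 59.4 was followed by 4 weak peaks with signals of 3.02 to 5.18. In replicate 1 the peak began 49 bp inside the gene.

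Ep400 encodes the ATPase of the Tip60-p400 complex, which deposits H2A.Z. Its signal was 56.0 in replicate 1 and 57.5 in replicate 2, a mean of 56.8 ± 1.04 (SD, n = 2), next to that of Smarcb1. The gene (75560) is on the minus strand of chromosome 5, at 110664373-110770927. The peak lay wholly inside it: it began 46 bp after the 5′ end in the replicated list, and the RefSeq start is 210 bp in. A non-coding RNA gene, Gm15559, starts 22 bp away on the opposite strand. Reads of the mark cannot be told apart between starts this close.

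The width of the Ep400 domain depended on the list. It was 2162 bp in the replicated list and 2084 bp in replicate 1, but 6515 bp in replicate 2 and 7069 bp in the pooled list. Replicate 2 added 6 upstream peaks with signals of 2.59 to 5.34, which joined into the domain, and the main peak itself was 2140 bp wide there. The mean width of 4.30 ± 3.13 kb (SD, n = 2) therefore has the largest spread of the 10.

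Ino80 encodes the ATPase of the INO80 complex. Its signal was 52.1 in replicate 1 and 48.2 in replicate 2, a mean of 50.2 ± 2.78 (SD, n = 2). The gene (68142) is on the minus strand of chromosome 2, at 119373042-119478685. Its domain of 4803 bp in the replicated list had its summit 925 bp inside the annotated gene. The RefSeq start lies 998 bp inside that same 5′ end, so the summit stood at -73 bp from the RefSeq start. In replicate 1 the summit was 1528 bp inside, 614 bp from that in replicate 2, the largest gap among the 10.

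Ranked by mean signal, the order was Smarcb1, Ep400, Chd1, Chd4, Ino80, Arid1a, Smarcc1, Brd9, Smarcd1 and Smarca4. Neighbours in this order mostly did not differ beyond their spread. Between Ep400 and Chd1 the means differed by 4.03, more than the larger SD of 1.04, and the replicate ranges did not overlap. Arid1a and Smarcc1 differed by 4.89 against an SD of 4.79, and Smarcd1 and Smarca4 by 3.28 against 3.28, but in each of these pairs the replicate ranges overlapped. The other 6 steps were smaller than the larger SD. Smarcb1 and Ep400 therefore formed an upper pair, and the order within the rest was mostly not resolved.

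Domain widths gave a different order: Arid1a, Smarcd1, Chd4, Ino80, Ep400, Smarcc1, Smarca4, Chd1, Brd9 and Smarcb1 by the mean of the replicates. The step from Smarcd1 to Chd4 was 4280.5 bp, against a larger SD of 556 bp, and the ranges were separate. Ranges were also separate between Smarcc1 (4381 and 4075 bp) and Smarca4 (2939 and 3981 bp). Chd1 (3305 and 3291 bp) was likewise separate from Brd9 (2481 and 2599 bp). The other 6 steps fell within the spread. Across the 10 genes in the replicated list, width and signal had a Spearman's rho of -0.273, a description over genes that share both libraries.

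The median width of the 10 genes was 3877.5 bp in the replicated list, against 2428 bp over all marked genes. It was 3843 against 2305 bp in replicate 1 and 4330 against 2311 bp in replicate 2. Within the high-CpG class the all-gene median in the replicated list was 2765 bp. In the replicated list 8 of the 10 were wider than the median over all marked genes, all but Smarcb1 and Ep400, and in replicate 2 all 10 were. There the main peaks of Smarcb1 (1968 bp) and Ep400 (2140 bp) were below the median, and joined weak peaks took their domains above it.

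**Figure D2:**
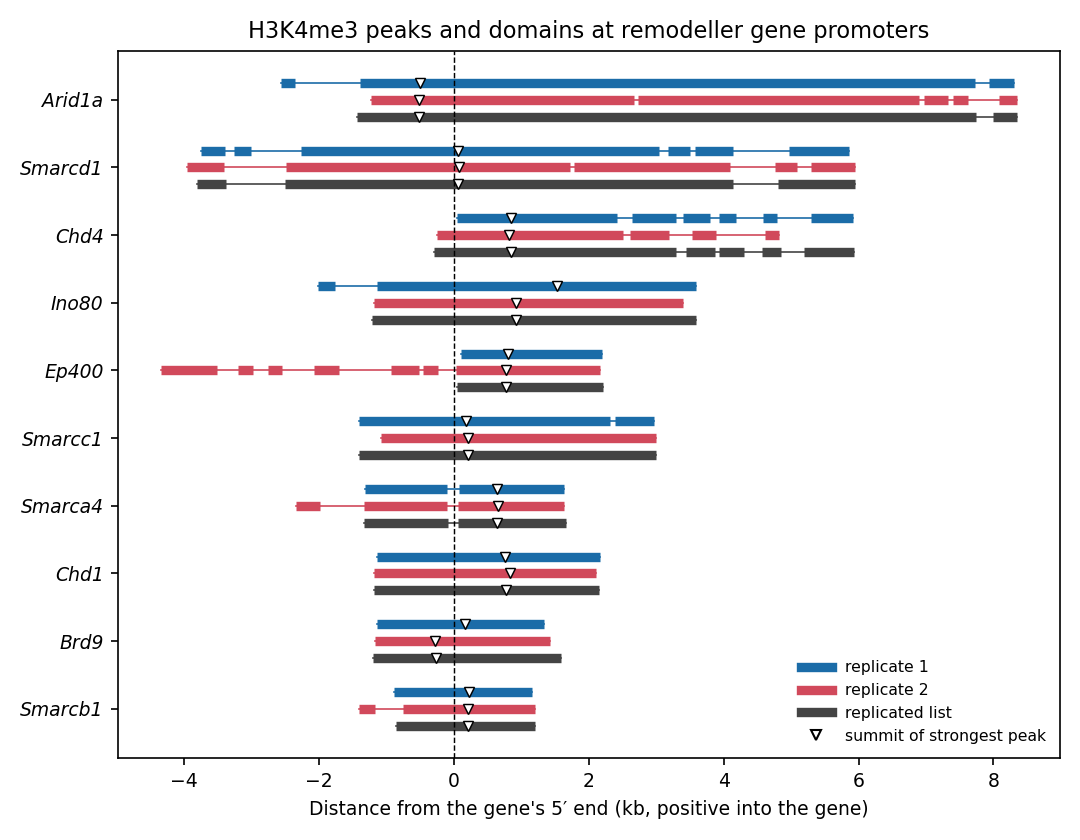
Peaks (thick bars) and the domains joining them (thin lines) at the 10 promoters in each replicate and in the replicated list, by distance from the gene's 5′ end in kb, positive into the gene. Triangles mark the summit of the strongest peak. Arid1a and Smarcd1 have the widest domains, Smarca4 has a gap at its start in every list, and the upstream peaks of Ep400 appear in replicate 2 only among the lists drawn.

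The mark lay mainly downstream of the start. The summit of the strongest peak was inside the gene at 8 of the 10 genes in the replicated list, all but Arid1a and Brd9, against 85.2% of marked genes. The median summit stood 428.5 bp from the 5′ end into the gene, against 274 bp over all marked genes. That distance depends on the outermost 5′ end taken as the start. From the RefSeq start the Smarca4 summit stood at 583 rather than 646 bp, and that of Ep400 at 569 rather than 779 bp. The Ino80 summit stood at -73 rather than 925 bp, and those of Smarcb1, Smarcc1 and Smarcd1 were unchanged. A median from RefSeq starts was not computed. Summits of the replicates were a median of 27 bp apart, against 31 bp over all genes, with Ino80 (614 bp) and Brd9 (443 bp) far above that. The 5′ end itself was not in a peak at Smarca4 and Ep400, 2 of the 10 genes, against 9.64% of marked genes (1357 of 14076).

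Replicates gave domains of like extent at most of these genes. The shared part was a median of 84.6% of the joint length for the 10 genes, against 87.7% over all genes marked in both replicates. Ep400 was lowest at 31.5%, and its wider domain was 3.13 times the narrower. Smarca4 followed at 73.8%, where replicate 2 added a weak upstream peak. Smarcd1 and Chd1 were both at 97.0%.

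**Figure D3:**
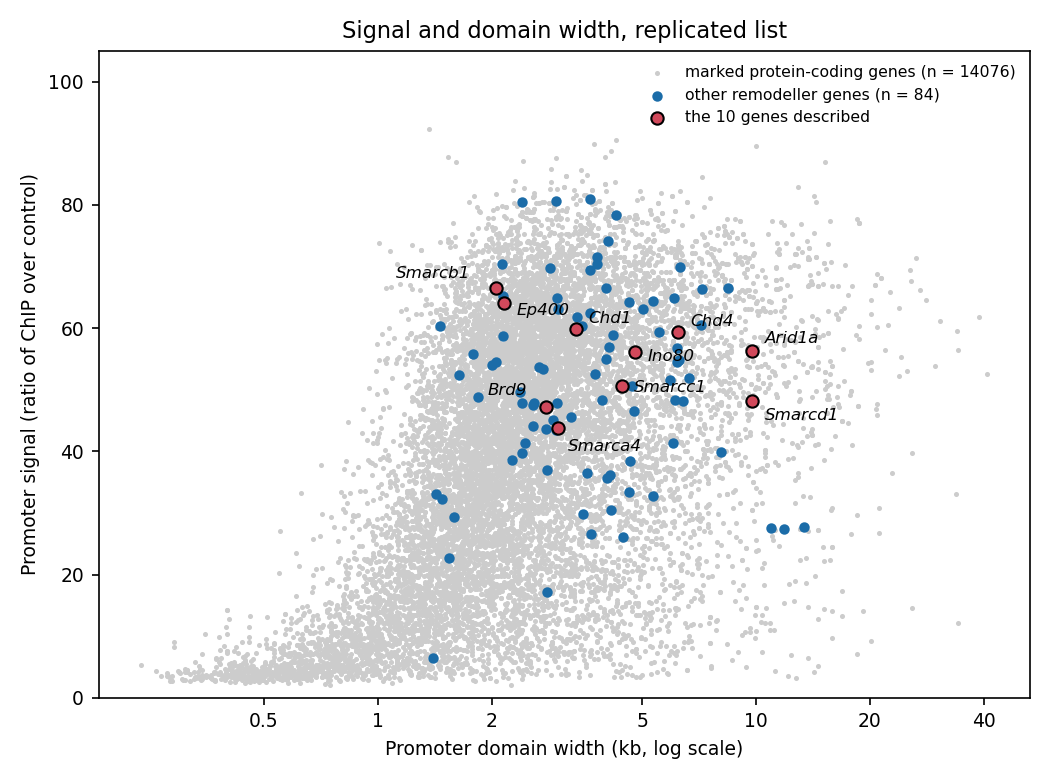
Promoter signal (ratio of ChIP over control) against promoter domain width (kb, log scale) in the replicated list for 14076 marked protein-coding genes in grey, 84 other remodeller genes in blue and the 10 genes in red. Arid1a and Smarcd1 lie near 10 kb at moderate signal, and Smarcb1 and Ep400 lie near 2 kb at high signal.

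Weak peaks were also found within the gene bodies in the replicated list, away from the promoter domains. The strongest, with a signal of 9.49, lay 34.0 kb into Chd4, 604 bp from its 3′ end and 1896 bp from the 5′ end of Nop2, a gene for an RNA methyltransferase. Ino80 had 3 such peaks, the strongest with a signal of 8.49 at 17.7 kb. Arid1a had 5, with signals of 3.20 to 5.46. Smarcd1 had 2, with signals of 3.45 and 6.18, and Smarcb1 had 2, with signals of 3.03 and 3.51. Chd1 had 1, of 4.13. The replicated list had no such peak in Smarca4, Smarcc1, Ep400 or Brd9. These counts depended on the list: Arid1a had 12 in replicate 1 and 10 in replicate 2, Ino80 had 6 and 8, Smarcc1 had 2 in each, and Smarca4 had 2 in replicate 2. In the replicated list all of them were well below the promoter signals of the same genes.

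Paralogues and other relatives of the members, from the same or a related complex, gave 12 pairs whose promoters were set side by side in each replicate. The signal ranges of the replicates were separate in 10 of the 12, with the member higher in 8 and the relative higher in 2. Smarcd1, Arid1a, Chd4 and Srcap recur among the pairs, so the pairs are not independent. How often the ranges of unrelated genes are separate, or how often a member lies above an unrelated gene, was not computed. All 10 members lay above the all-gene median signal in the replicated list. The counts therefore describe these pairs only. Smarca2, the alternative BAF ATPase, had signals of 28.9 and 25.9, below both values of Smarca4, and the means differed by 11.5. The widths of Smarca2 (3926 and 3986 bp) overlapped those of Smarca4. The scaffold gene Smarcc2 went the other way: its signals were 69.3 and 72.0, above both values of Smarcc1, a difference in the mean (Smarcc1 minus Smarcc2) of -26.5, at a narrower width of 2507 and 2171 bp.

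Among the Smarcd genes, Smarcd2 had signals of 51.6 and 58.3 and lay above Smarcd1, and Smarcd3, a muscle and neural form, had 18.4 and 21.5 and lay below it. Smarcd1 was wider than both. Arid1b, the paralogue of Arid1a, had signals of 30.3 and 33.4, lower than Arid1a by 17.1 in the mean, and domains of 4007 and 4031 bp. Arid2, which takes the corresponding place in PBAF, had signals of 46.2 and 44.6, a range that overlapped that of Arid1a. Brd7 of PBAF, at 43.1 and 44.6, overlapped Brd9.

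CHD genes differed more widely. Chd2 had signals of 23.4 and 25.8, below Chd1 by 28.1 in the mean, but its domains of 9211 and 6687 bp were wider than those of Chd1. In the replicated list the Chd2 domain was 10930 bp. Chd3 (24.0 and 22.0) and Chd5 (24.5 and 22.8), the other Mi-2 ATPases that can serve NuRD, lay below Chd4 by 28.9 and 28.3 in the mean. Srcap, an ATPase of the same family as Ep400 and Ino80 that also deposits H2A.Z, had signals of 34.5 and 29.5. It lay below Ep400 by 24.8 and below Ino80 by 18.1 in the mean.

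**Figure D4:**
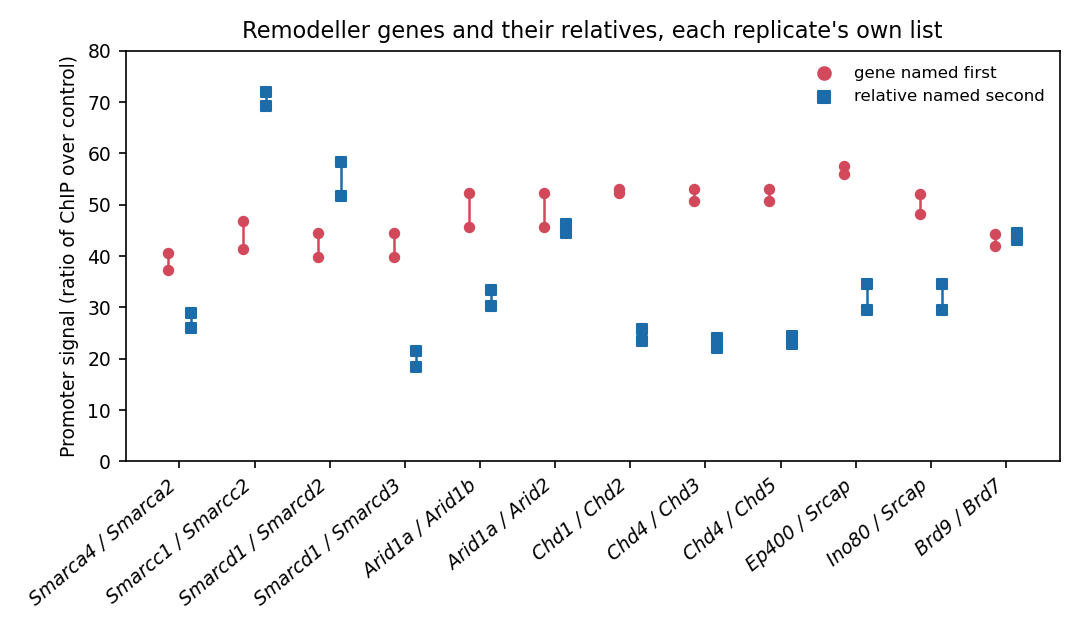
Promoter signal (ratio of ChIP over control) in the 2 replicates for each of 12 pairs of a member and a relative. The lines join the replicates of 1 gene. The member lies above in 8 pairs, Smarcc2 and Smarcd2 lie above their members, and the ranges overlap for Arid1a with Arid2 and for Brd9 with Brd7.

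A wider list of 96 remodeller genes in 6 groups placed the 10 in their complexes. Of 95 that could be analysed, 94 were marked (98.9%), and in these the median signal was 52.1 and the median width 3641 bp. Without the 10 members the list held 84 marked of 85, with 51.8 and 3641 bp. The medians of the 10 genes (56.1 and 3877.5 bp) were thus near those of other remodeller genes. Baz1a, a partner of ISWI ATPases, was the gene without a peak within 1 kb of its annotated 5′ end. Its promoter was of the low-CpG class, but 9 of the 10 low-CpG genes of the wider list were marked, with a median signal of 48.2.

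BAF, PBAF and ncBAF subunit genes were marked in 27 of 27, with a median signal of 49.6 and a width of 3360 bp. Their highest signal in the replicated list was at Actl6a, an actin-like subunit, at 72.7 in replicate 1 and 68.9 in replicate 2, where Smarcc2 (72.0) was higher. The lowest in all 3 lists was at its neuronal counterpart Actl6b, at 5.87 and 4.77 in the replicates. Arid1a had the widest domain of this group in the replicated list and in replicate 1, and Smarcd1 in replicate 2. Smarcb1 was the member with the highest signal in the group in the replicated list, where Smarca4, Brd9 and Smarcd1 lay below the group's median.

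CHD genes were marked in 9 of 9 with a median of 53.3, and both Chd1 and Chd4 were above it. Chd7, the gene affected in CHARGE syndrome, was the highest at 58.2 and 58.3. Chd3 was the lowest in the replicated list and in replicate 2, and Chd2 in replicate 1. Other NuRD subunit genes were marked in 12 of 12, at a median signal of 52.7, and their median width of 4869.5 bp was the largest of the 6 groups. They ranged from Rbbp7 (34.3 and 30.1) to Rbbp4 (64.6 and 58.6), which encode related histone-binding proteins. Mbd3, a NuRD subunit needed for stem cell differentiation, had the widest domain there at 7911 and 7784 bp.

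ISWI genes were marked in 10 of 11, with a median signal of 53.7. Rsf1, a histone chaperone partner, was highest at 70.7 and 70.3, and the ATPase gene Smarca1, at 26.2 and 26.7, was lowest in the replicated list and in replicate 1. Baz2a had the widest domain, 8433 bp in the replicated list, with a summit 5774 bp inside the gene. INO80, SRCAP and Tip60-p400 subunit genes were marked in 30 of 30 in the replicated list, with a median signal of 54.3 and the smallest group median of width, 2945.5 bp. That signal median was the highest of the 6 groups in the replicated list but in neither replicate. Ep400 and Ino80 were both above that signal median.

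Brd8 of Tip60-p400, at 65.2 and 60.9, was the highest of that group in the replicated list and in replicate 1. Ruvbl2, an ATPase shared by these complexes, at 22.8 and 29.3, was the lowest in those same lists. In replicate 2 other genes of the group took both places. Its domain was 11833 bp wide in the replicated list, and its summit lay at -3385 bp in replicate 1 and 1077 bp inside in replicate 2. Ino80d had the widest domain of the group in the replicated list, 13369 bp there but 9427 and 9327 bp in the replicates. In replicate 1 the Ruvbl2 domain, at 11835 bp, was wider. The 6 other SNF2 family genes were all marked, with the lowest group median of 33.1. Hells, a remodeller linked to DNA methylation, was highest (58.5 and 58.6) and widest there, and Smarcal1, a fork remodelling enzyme, was lowest (17.9 and 11.9).

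**Figure D5:**
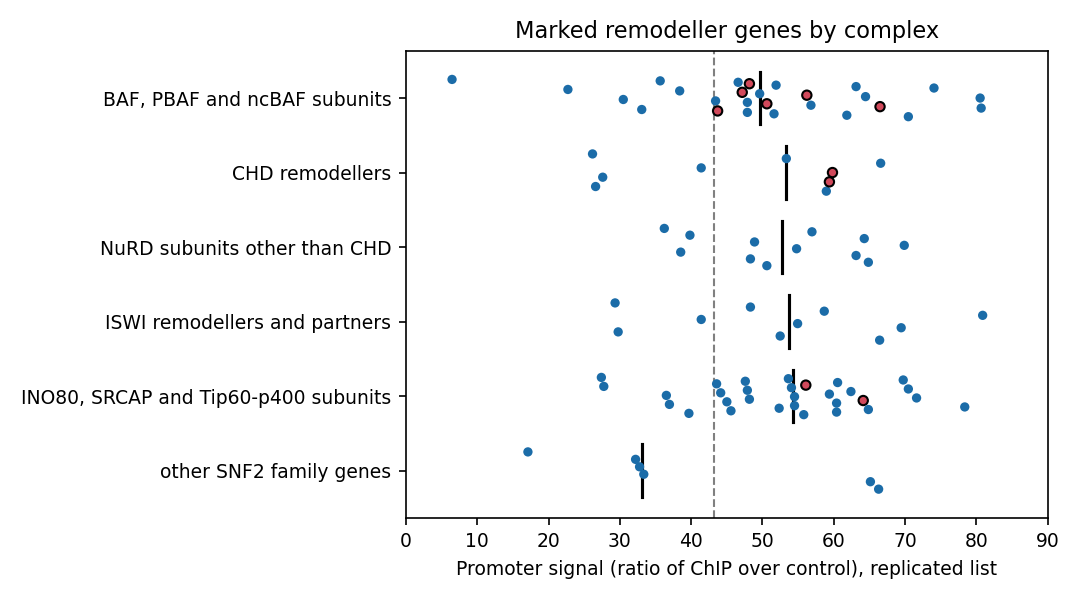
Promoter signal (ratio of ChIP over control) in the replicated list of the 94 marked remodeller genes by group, with the 10 members in red, other genes in blue, each group's median as a black bar and the median of all marked genes, 43.1, as a dashed line. The medians of 5 groups lie right of the dashed line, and that of the other SNF2 family genes lies left of it at 33.1.

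Patterns most like each member's were sought over 4 values, the log2 signal and log2 width in each replicate, each scaled by its SD over marked genes, among 92 other remodeller genes. Smarcd1 and Arid1a were each other's nearest, at a distance of 0.343 SD units. Chd4 and Ino80 shared the same nearest gene, Ino80e, at 0.0981 and 0.140. Brd9 was nearest to Bcl7c (0.118), Chd1 to Znhit1 (0.149), Smarcc1 to Bcl7a (0.175) and Smarcb1 to Rad54l2 (0.233). Smarca4 (nearest Yeats4, 0.429) and Ep400 (nearest Gatad2a, 0.447) had no neighbour as close. The distance describes likeness of these values only.

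The mm9 lists that the authors also deposited gave a view of every annotated start. GENCODE vM1 lists 55 transcripts of the 10 genes with 43 distinct transcription start sites. A region of the pooled mm9 list lay within 1 kb of a start in all 10 genes, against 73% of 20337 genes. It covered 27 of the 43 starts in that list and 26 in each replicate's list. The 16 starts without a region lay 5045 to 102529 bp into their genes, and 12 of them served only transcripts annotated as non-coding. Of the 27 starts with a region, 5 served only such transcripts.

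Ep400 had the most starts, 9, and the 4 with a region lay in its first 562 bp. Smarcb1 had 4 of 7 and Chd4 had 4 of 7 with a region. Chd1 had 3 of 5, Ino80 had 3 of 4 and Smarca4 had 2 of 3. Smarcc1, Smarcd1 and Brd9 had 1 start each, and each was marked. Arid1a differed from the rest: a weak region of 2200 bp, with a ratio of 1.57, lay at a start 32890 bp inside the gene in the pooled mm9 list, and in neither replicate's list.

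Region widths on mm9 were also large at Arid1a (10.4 kb pooled, 9.8 and 9.0 kb in the replicates) and Smarcd1 (8.6, 8.2 and 10.8 kb). Arid1a was widest in the pooled list and in replicate 1, and Smarcd1 in replicate 2. Ino80 measured 8.8, 4.8 and 8.2 kb. Ep400 (3.2, 2.8 and 3.2 kb) and Brd9 (3.4, 2.8 and 3.2 kb) were the narrowest, while Smarcb1, the narrowest in the replicated mm10 list, measured 4.4, 3.6 and 4.4 kb. Signal did not keep its order either. On mm9 the ratio was highest at Chd1, at 34.5 in replicate 1, 39.0 in replicate 2 and 24.5 in the pooled list, and low at Smarcb1, at 17.8, 14.1 and 12.7, which had the highest signal of the 10 in the replicated mm10 list. No source used here gives the denominator of the mm9 ratio, so the scales cannot be compared.

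The identity of the cells was checked against markers. Over all protein-coding genes 68.4% had a promoter peak in the replicated list, with a median signal of 43.1. Of 10 stem cell markers 9 had a promoter peak in the replicated list, with a median signal of 56.7, and Esrrb had none at its annotated 5′ end. A weak Esrrb peak was found there in replicate 2 (2.85) and in the pooled list (2.44). Of 10 fibroblast markers, chosen because feeder cells could be present, 5 had a peak, with signals of 5.75 to 23.4 and a median of 15.7. Their part in the signals of the remodeller genes was not tested.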

How the data were processed

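ChIP-seq peak lists of 2 biological replicates were used. Per the deposited file descriptions there are 4 mm10 lists in narrowPeak format (1 per replicate, 1 pooled, 1 replicated) and 3 mm9 lists in broadPeak format. On mm10 the authors' signal is a ratio, ChIP over control, for each peak, and on mm9 it is a deposited ratio of unstated denominator. A −log10 q-value and a summit position accompany each deposited mm10 peak. Aligner, peak caller and settings: not given in the sources used here. Library depth is unknown, so an unmarked promoter may hold signal under the authors' threshold. All 62128 peaks of the replicated list, the main list, stood unchanged in the pooled list.

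Genes were taken from the GRCm38.p6 RefSeq table. Strand came from GENCODE vM1, by gene name (18396 genes) or synonym (2191), and 1300 of 21887 genes without a match were left out. A gene was marked when a peak overlapped the window from 1 kb before to 1 kb after its 5′ end, and its signal was the highest there. Domains join peaks separated by less than 1 kb, and the widest at the promoter gave the width. Summit distances are positive into the gene. High-CpG promoters had a 500 bp window with a CpG ratio over 0.75 and GC content over 55% in the mm9 sequence, from 1300 bp upstream to 200 bp downstream of the first start. On mm9 every vM1 start was used.

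The members and lists were chosen with earlier results of these data known. Besides the members, the text names, in each group, the genes with the highest and lowest signal, the widest domain or no peak, fixed relatives, genes starting within 1 kb of a member and each member's most like gene. No count was tested, and medians over all genes stand beside those of the members. Alternatives were the list of a single replicate, the pooled list, q-values under 1e-05, windows of 500 bp and 2 kb, no joining or joining under 3 kb, and, chosen after seeing the data, RefSeq starts. Calls were tested on simulated peaks. Python 3.11.15 with pandas 2.3.3, numpy 2.4.6 and matplotlib 3.10.9 was used. Bicral, 1 of the 96 listed genes, was not analysed here.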

Additional observations from a re-analysis of the deposited data

How the results depend on the processing

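All 10 remodeller genes kept a promoter peak in every mm10 alternative run, and a region at a start in every mm9 one, while the wider list had 92 to 94 marked genes. Several medians moved by more than the spread between replicates. With 1 replicate left out, the median signal of the 10 genes was 46.9 to 52.2 (56.1 in the replicated list), their median width 3843 to 4330 bp (3877.5) and their median summit distance 430 to 431.5 bp (428.5). For the wider list the signal was then 44.3 to 46.2 (52.1) and the width 3427 to 3531 bp (3641). Median widths of the 10 genes were 5015 bp in the pooled list, 3462 bp with no joining and 5321 bp with joining under 3 kb, and for the wider list 4048.5, 2938 and 4237 bp. The median summit distance was not rerun with RefSeq starts. The cause of the lower signal in single replicates was not tested. Among single genes, signal moved for 10 without replicate 1 and for 9 without replicate 2, and in no other alternative. Width moved for 7 and 4, and for 4 in the pooled list, 3 with no joining and 3 with joining under 3 kb. The pooled list and the q-value cut could not lower the signals. All peaks of the replicated list stood unchanged in the pooled list, and the strongest peaks of the 10 genes had −log10 q-values of 388 to 688. Positions relative to all genes also moved: Smarca4 lay below the all-gene median signal in replicate 1 alone, the domains of Smarcb1 and Ep400 were wider than the median in replicate 2 and the pooled list, and the Brd9 summit lay inside the gene in replicate 1 alone. No paired analysis was possible because the study has 1 group. Depth is unknown, so weak peaks such as those upstream of Ep400 could not be set against a detection limit. The Ep400 peaks in question were in replicate 2 and the pooled list, and not in replicate 1 or the replicated list.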
